A study of Mus musculus with 12 samples.

Results

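The heat shock proteins and their co-chaperones were taken from the counts of sorted microglia as the protein-coding genes whose symbols begin with Hspa, Hspb, Hspd, Hspe, Hsph or Hsp followed by a digit, or with Dnaj. The rule gave 74 of the 55487 genes in the table. By family they are 3 HSP90 genes, 14 HSP70 and HSP110 genes, 2 chaperonin genes, 8 small heat shock proteins, 2 HSP70-binding proteins and 45 J-domain proteins (4 DNAJA, 13 DNAJB and 28 DNAJC). A further 15 genes have such symbols but are annotated as pseudogenes or other non-coding genes and were left out. All cells came from YARG mice at postnatal day 13, a reporter strain in which yellow fluorescent protein (YFP) is read from the *Arg1* locus, and were sorted by FACS as CX3CR1+ CD206- cells from the basal forebrain and striatum area. ARG1+ microglia carried YFP and ARG1- microglia did not, and neither population received a treatment. There are 6 libraries of each population, 3 from females and 3 from males, each made from the pooled brains of several pups of 1 sex. The study names 3 litters per sex as the source of both populations, so ARG1+ and ARG1- libraries of a sex share litters. The labels do not tie a library to its litter, and the tests treat the 12 libraries as separate samples. Total counts ranged from 28356659 to 60625170 per library. ARG1 status is that of the reporter, since *Arg1* itself had 0 counts in all 6 ARG1- libraries and in 4 of the 6 ARG1+ libraries, while ARG1+ female replicate 8 had 2 and ARG1+ female replicate 15 had 52. By the S number in the labels, S1 to S6 are female and S7 to S12 male, so sex and this order cannot be told apart. The replicate number, used here in library names, is 1, 2, 5, 6, 13 and 14 in ARG1- libraries. In ARG1+ libraries it is 7, 8, 11, 12, 15 and 16, so up to 12 it follows ARG1 status. The labels explain neither number.

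Heat shock proteins are molecular chaperones, which hold unfolded proteins and help them to fold, to cross membranes or to be degraded. HSP70 binds short hydrophobic stretches in a cycle driven by ATP, J-domain proteins bring it its clients and start ATP hydrolysis, and nucleotide exchange factors release them. HSP90 acts later on proteins that are nearly folded, HSP60 with its lid HSP10 encloses proteins inside mitochondria, and small heat shock proteins hold clients without using ATP. Some members are made in all cells at all times and others are induced by heat, oxidants or unfolded protein, through heat shock factor 1 in the cytosol or through the unfolded protein response in the endoplasmic reticulum (ER). Microglia, the resident macrophages of the brain, engulf debris and secrete many proteins.

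Both induction routes act through sites in promoters, and the matches to 1 strict form of each site are shown here for reading beside the values. RefSeq promoters (build GRCm38.p6, from 250 bases before to 50 bases after each start) were at hand for 60 of the 74 members. The other 14 were not searched: *Hsp90aa1*, *Hsp90ab1*, *Hspa8*, *Hspa9*, *Hspa13*, *Hspb2*, *Dnajc2*, *Dnajc5*, *Dnajc5b*, *Dnajc11*, *Dnajc12*, *Dnajc18*, *Dnajc22* and *Dnajc30*. A full heat shock element, searched on both strands, with overlaps allowed, as GAA, any 2 bases, TTC, any 2 bases and GAA, lay in the promoters of 4 of these 60 genes (6.67%), *Hspd1*, *Hspe1*, *Hsph1* and *Dnajb6*, and in 0.662% of all 27025 genes with a promoter. The ER stress element, searched on both strands as CCAAT, any 9 bases and CCACG, lay in 3 of the 60 (5%), *Hspa5*, *Hsp90b1* and *Dnajc3*, and in 0.137% of all genes. The stress-induced *Hspa1a*, *Hspa1b*, *Hspb1* and *Dnajb1* were searched and held no match to this full heat shock element. That does not mean that they lack such elements in another form. These matches are a description of letters and not of binding. In the sequences below the capitals mark the match.
Hspe1 and Hspd1 (shared, chr1:55088053-55088082, plus strand): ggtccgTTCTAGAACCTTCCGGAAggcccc
Dnajb6 (chr5:29735844-29735872, plus strand): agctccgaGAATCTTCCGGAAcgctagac
Hsph1 (chr5:149636280-149636308, minus strand): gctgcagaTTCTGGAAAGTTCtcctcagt
Hspa5 (chr2:34772020-34772048, plus strand): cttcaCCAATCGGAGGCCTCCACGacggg
Hsp90b1, distal (chr10:86705618-86705676, minus strand): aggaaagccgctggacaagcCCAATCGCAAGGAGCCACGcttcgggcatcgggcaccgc
Hsp90b1, proximal (chr10:86705513-86705571, minus strand): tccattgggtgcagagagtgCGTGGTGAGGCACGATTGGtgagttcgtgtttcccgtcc
Dnajc3 (chr14:118937807-118937865, plus strand): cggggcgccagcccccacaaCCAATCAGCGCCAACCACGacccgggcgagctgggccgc
The first of these is a single stretch of chromosome 1, with 2 overlapping matches in it, that lies before the RefSeq starts of both chaperonin genes, *Hspe1* on the plus strand and *Hspd1* on the minus strand. In GENCODE M21 the longest extent of *Hspd1* reaches over this stretch and into the start of *Hspe1*.

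ARG1+ and ARG1- microglia expressed the family at nearly the same summed level, and most single members differed little. The members together held 5109 to 6444 CPM in ARG1- libraries (median 5626) and 5055 to 6083 CPM in ARG1+ libraries (median 5773), where CPM is the count scaled to a common library total after TMM scaling. Of the 74 members, 64 passed the filter on low counts and were tested. At an adjusted p under 0.05, 3 members were higher in ARG1+ microglia (*Hspa1l*, *Hspb1* and *Dnajb14*) and 6 were lower (*Hspe1*, *Hspb3*, *Dnajc15*, *Dnajc24*, *Dnajb9* and *Dnajc8*). *Hspa1l* and *Hspb1*, with 2 counts and 1 count in all ARG1- libraries together, could pass the filter only through the ARG1+ libraries, where they were high, so their calls do not support a count of higher members. With no filter their adjusted p were 0.00335 and 0.00494. The 9 called are 14.1% of the members tested, where 15.9% of all 16908 genes tested were called, so the share of members called was near that of any gene. By direction, 9.38% of the members were lower against 9.42% of all genes, and 4.69% were higher against 6.44%. The 14.1% and the 4.69% both include *Hspa1l* and *Hspb1*, so the share of higher members carries the limit just given. The median log2 fold change, ARG1+ over ARG1-, was -0.03 over the members and 0.06 over all genes, and 44 of the 64 members lay between -0.5 and 0.5. For 4 members the highest ARG1+ library lay below the lowest ARG1- library (6.56% of all genes). The reverse (3.48% of all genes) held only for *Hspa1l* and *Hspb1*, under the same limit of the filter. The 6 lower members became 3 when ARG1+ female replicate 7, ARG1+ female replicate 8 or ARG1- male replicate 6 was left out, and 2 without ARG1+ male replicate 12 or ARG1+ male replicate 16. In these bulk libraries, fewer cells that express a gene and less of its RNA per cell cannot be told apart.

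**Figure D1:**
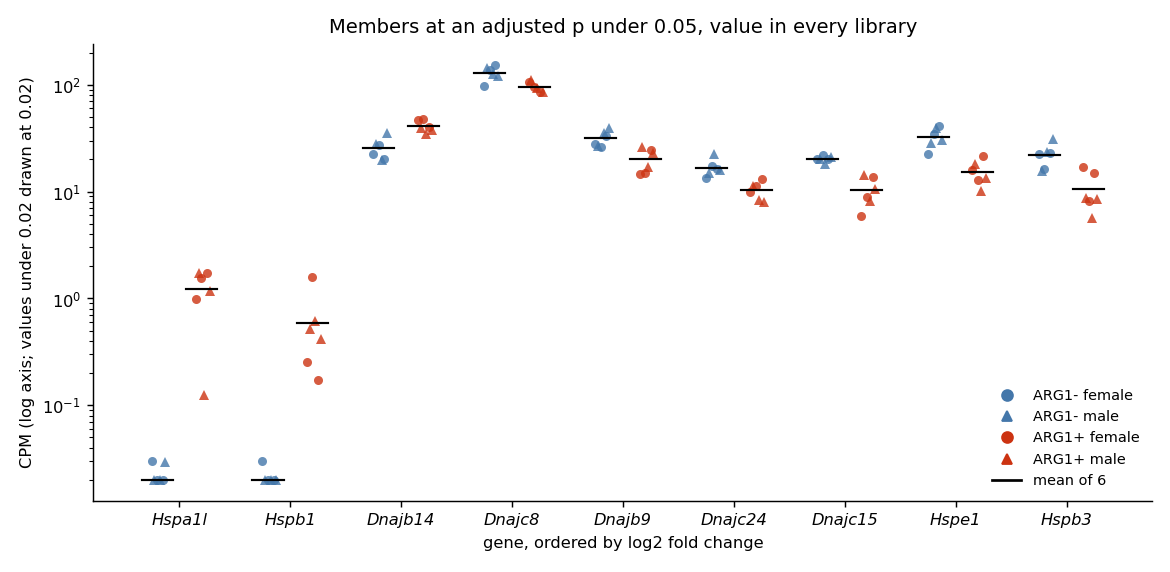
CPM on a log axis of the 9 members at an adjusted p under 0.05, in each of the 6 ARG1- (blue) and 6 ARG1+ (red) libraries, with circles for females, triangles for males and a black bar for the mean of 6. *Hspa1l* and *Hspb1* sit at the bottom of the axis in ARG1- libraries, and the ARG1+ libraries of *Hspe1*, *Dnajc15*, *Dnajc24* and *Dnajb9* all lie below the ARG1- libraries.

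The clearest change among well-expressed members split the mitochondrial chaperonin pair. *Hspe1* (chr1:55088132-55091307, plus strand, GRCm38) encodes HSP10, the lid of the HSP60 chamber. Its CPM in ARG1- females was 22.6, 34.2 and 40.7 and in ARG1- males 28.7, 39.0 and 30.2. In ARG1+ females it was 16.02, 12.8 and 21.5 and in ARG1+ males 18.1, 10.2 and 13.5. The lowest ARG1- library thus lay just above the highest ARG1+ library. *Hspe1* fell from 32.6 ± 6.78 to 15.4 ± 4.06 CPM (SD, n = 6 libraries each), or by 1.09 on the log2 scale (SE 0.21, adjusted p = 0.00493), and it was called in each of the 12 fits that left out 1 library.

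*Hspd1* (chr1:55077835-55088243, minus strand), which encodes HSP60 itself and shares the promoter stretch printed above, showed no such difference. Its CPM was lowest at 47.2, with a median of 57.1 and a highest value of 81.5 in ARG1- libraries, and 49.2, 66.6 and 74.1 in ARG1+ libraries. The populations overlapped almost fully, and the log2 fold change was 0.10 (SE 0.15, adjusted p = 0.717). The ratio of *Hspe1* to *Hspd1* CPM ran from 0.320 to 0.731 in ARG1- libraries (median 0.549) and from 0.162 to 0.348 in ARG1+ libraries (median 0.218). Only ARG1- female replicate 1, with the lowest ratio of its population, fell among the ARG1+ values. Exons of the genes overlap by 112 bases on opposite strands, and 33.7% of the 75-base windows of *Hspd1* transcripts, against 3.15% of those of *Hspe1*, also occur in another gene, mostly pseudogenes. The other mitochondrial members did not follow one direction. *Hspa9*, the mitochondrial HSP70, had a log2 fold change of -0.08 (SE 0.17), *Dnaja3*, its J-domain partner in the matrix, of 0.03 (SE 0.17) and *Dnajc19*, of the import motor, of -0.16 (SE 0.16), all with adjusted p above 0.5. *Dnajc15*, an import motor protein related to *Dnajc19*, fell and is described with the J-domain proteins.

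**Figure D2:**
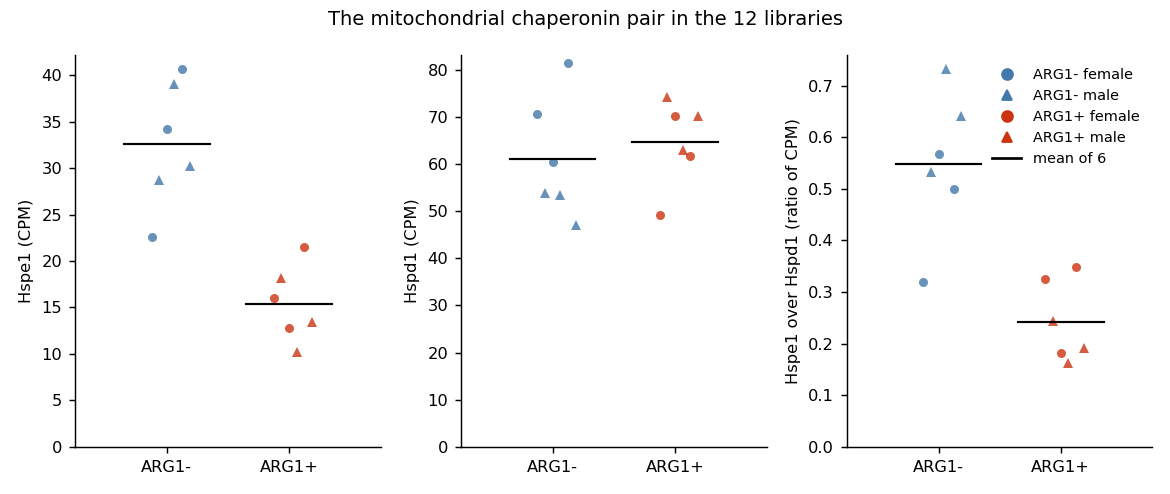
CPM of *Hspe1* and *Hspd1* and their ratio in the 6 ARG1- (blue) and 6 ARG1+ (red) libraries, with circles for females, triangles for males and a black bar for the mean of 6. *Hspe1* separates the populations, *Hspd1* does not, and the ratio separates them except for ARG1- female replicate 1 at 0.320.

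Apart from *Hspb3*, the small heat shock proteins were scarce, and those that changed went opposite ways. Of 8 members, 4 were tested, 1 was higher (*Hspb1*) and 1 was lower (*Hspb3*). That is 50% called, against 15.9% of all genes, but *Hspb1* passed the filter only through the ARG1+ libraries. *Hspb1* (chr5:135887919-135889563) encodes HSP25, the stress-induced form best known for protecting actin. The 6 ARG1- libraries together gave a single count, from female replicate 1. The ARG1+ libraries held 8, 47 and 6 counts in females and 23, 29 and 14 in males. The level was low in every library, with at most 1.6 CPM, but no ARG1+ library reached down to the ARG1- values. Summed over the libraries, 127 counts against 1 gave a ratio of 134, with an exact 95% interval from 23.6 to 5330 that covers counting error only. The adjusted p was 0.00279, and 0.0167 without ARG1+ female replicate 8, which held the most counts. Of the 75-base windows of *Hspb1*, 47.3% also occur in the pseudogenes *Hsp25-ps1* and *Gm9817*, and *Hsp25-ps1* had at most 6 counts in any library. Endothelial markers, with 0 of the 5 tested called, summed to 30.4 to 58.8 CPM in ARG1- libraries and to 44.9 to 84.3 CPM in ARG1+ libraries. *Pecam1* had 36.5 ± 10.8 against 53.1 ± 16.2 CPM, *Kdr* 1.13 ± 2.31 against 3.76 ± 2.38, *Flt1* 0.551 ± 1.04 against 2.38 ± 1.45, *Cdh5* 1.22 ± 0.607 against 0.751 ± 0.270 and *Itm2a* 0.722 ± 0.554 against 0.390 ± 0.482, ARG1- first. *Cldn5* was at 0 in every library, and the part of such cells in the *Hspb1* counts was not tested.

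*Hspb3* (chr13:113662896-113663676), a small heat shock protein best known from muscle, was the most abundant of this family per length (61.0 in TPM form, CPM divided by exon length and scaled to one sum per library, mean of 12 libraries). Its CPM ran from 15.7 over a median of 22.7 to 31.1 in ARG1- libraries and from 5.71 over 8.59 to 16.8 in ARG1+ libraries. ARG1+ female replicate 7 alone lay above the lowest ARG1- libraries. *Hspb3* fell from 22.0 ± 5.67 to 10.5 ± 4.41 CPM (log2 fold change -1.12, SE 0.28, adjusted p = 0.0181). It lost the call without ARG1+ male replicate 12 (adjusted p = 0.0565) or ARG1+ male replicate 16 (adjusted p = 0.0590). *Hspb11* (1.57 ± 0.655 against 1.02 ± 0.200 CPM) and *Hspb6* (5.46 ± 4.16 against 5.04 ± 1.30 CPM) were not called.

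Of the 13 HSP70 and HSP110 genes tested, edgeR called 1 higher and 0 lower in ARG1+ microglia (7.69%, against 15.9% of all genes). The 1 higher, *Hspa1l*, passed the filter only through the ARG1+ libraries. DESeq2 gave 2 higher (*Hspa1l* and *Hspa1b*) and 0 lower, and *Hspa1b* too could pass the filter only through the ARG1+ libraries. At an unadjusted p under 0.05, 3 were higher (*Hspa1l*, *Hspa1b* and *Hspa12a*) and 2 were lower (*Hspa8* and *Hspa14*), where 13.9% of all genes were higher and 15.2% lower at that limit. The gene that rose, *Hspa1l* (chr17:34972703-34979285, plus strand), encodes a cytosolic HSP70 best known from testis and lies beside the stress-induced *Hspa1a* and *Hspa1b*. It had 1, 0 and 0 counts in ARG1- females and 0, 0 and 1 in ARG1- males. It had 31, 46 and 61 counts in ARG1+ females and 76, 6 and 40 in ARG1+ males. No library of one population reached the other, although the lowest ARG1+ library, male replicate 12, held 6 counts. Summed, 260 counts against 2 gave a ratio of 137.1 (exact 95% interval from 37.6 to 1140, counting error only), and the adjusted p was 0.00222. The mean level in ARG1+ libraries was 1.22 ± 0.616 CPM.

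Reads in this locus are hard to assign. *Hspa1l* exons overlap those of the antisense gene *Gm10501* by 1778 bases, and 71.1% of its 75-base windows also occur in *Gm10501*, *Hspa1a* or *Hspa1b*. The study's methods, SMART-Seq v4 with Nextera XT, name no step that keeps the strand of a read. The counting settings are not given in the sources used here. Without strand, reads in the overlap of *Hspa1l* and *Gm10501* cannot be told apart, so the *Hspa1l* counts and ratio are uncertain. *Gm10501* had 7, 1, 39, 7, 0 and 21 counts in the ARG1- libraries and 66, 60, 70, 99, 12 and 51 in the ARG1+ libraries. Both were lowest among ARG1+ libraries in male replicate 12.

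The stress-induced pair *Hspa1a* and *Hspa1b*, the genes that rise most in a heat shock, were close to the detection limit in both populations. *Hspa1a* (chr17:34969190-34972156) had 17, 56, 0, 13, 0 and 0 counts in ARG1- libraries and 0, 95, 27, 0, 40 and 21 in ARG1+ libraries, and its adjusted p was 0.563. *Hspa1b* (chr17:34956436-34959238) had 18, 0, 16, 0, 0 and 0 counts in ARG1- libraries and 30, 69, 26, 15, 15 and 13 in ARG1+ libraries. All 6 ARG1+ libraries held *Hspa1b* reads and 2 of the 6 ARG1- libraries did, but the populations overlapped in CPM and the adjusted p was 0.0517. With reads in 2 ARG1- libraries only, *Hspa1b* could not pass the filter without the ARG1+ libraries, where it was higher. Its calls below therefore do not support a count of higher members, and with no filter it was not called. *Hspa1b* passed the limit with DESeq2 (adjusted p = 0.00928), with RLE size factors (0.0498), with thinned counts (0.0470) and without ARG1- female replicate 1 (0.0311). Without ARG1+ female replicate 8, which was highest for both genes, its adjusted p was 0.120. The copies are nearly identical: 61.7% of the windows of *Hspa1a* and 55.8% of those of *Hspa1b* occur in the other copy or in a neighbour, so the division of reads between them is uncertain. The level of both, under 4 CPM in every library, set them far below the constitutive *Hspa8*.

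*Hspa8*, the constitutive HSP70 of the cytosol, had 436, 620 and 773 CPM as its lowest, median and highest value in ARG1- libraries and 364, 464 and 538 CPM in ARG1+ libraries. The populations overlapped, and the log2 fold change of -0.42 (SE 0.15, adjusted p = 0.080) did not pass the limit with all 12 libraries. It did without ARG1- male replicate 5 (-0.50, adjusted p = 0.0375). Of its windows, 41.3% also occur in other genes, mostly pseudogenes. Among other stress-induced members, *Hsph1*, the HSP110 exchange factor, had 24.2 ± 8.32 CPM in ARG1- and 28.7 ± 8.70 CPM in ARG1+ microglia (adjusted p = 0.604). *Dnajb1*, the J-domain protein of the heat shock response, had 53.7 ± 13.998 and 45.0 ± 5.61 CPM (adjusted p = 0.389), and *Dnaja1*, its class A counterpart, 70.7 ± 15.4 and 65.0 ± 16.05 CPM (adjusted p = 0.706). None of these 3 genes was called.

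The ER chaperones included the most abundant members, and their main folding enzymes differed little. In TPM form, averaged over the 12 libraries, *Hspa5* (BiP, the HSP70 of the ER) stood at 788 and *Hsp90b1* (GRP94, the HSP90 of the ER) at 778, followed by *Hsp90ab1* at 456, *Hspa8* at 363 and *Dnajb11* at 142. *Hspa5* had 857 to 1317 CPM in ARG1- libraries and 961 to 1288 CPM in ARG1+ libraries, and its log2 fold change was 0.12 (SE 0.12, adjusted p = 0.561). *Hsp90b1* had 847 to 1179 CPM and 901 to 1190 CPM (0.07, SE 0.09, adjusted p = 0.661). The ranges of both genes lay almost on top of each other. *Dnajb11*, the J-domain partner of BiP in folding, had 155 ± 28.5 and 150 ± 17.4 CPM (log2 fold change -0.04, SE 0.13). *Dnajc3*, which binds clients for BiP, was at 156 ± 30.1 and 196 ± 20.8 CPM (0.33, SE 0.14, adjusted p = 0.122) and passed the limit with DESeq2 (0.37, adjusted p = 0.0385). These 4 include all 3 members, of the 60 with a promoter to search, that hold the ER stress element printed above.

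1 ER member fell. *Dnajb9* (chr12:44205559-44210326) encodes ERdj4, which delivers misfolded proteins to degradation and restrains the sensor IRE1. Its CPM was 26.1 to 39.6 in ARG1- libraries (median 30.5) and 14.7 to 26 in ARG1+ libraries (median 20.1). The ARG1+ values ended just under the lowest ARG1- value, that of female replicate 2. *Dnajb9* fell from 31.5 ± 5.45 to 20.1 ± 5.08 CPM (-0.65, SE 0.18, adjusted p = 0.0285). The call held in 5 of the 12 fits that left out 1 library. It was lost, at adjusted p from 0.0531 to 0.0878, without ARG1- female replicate 13, ARG1- male replicate 6 or 14, ARG1+ female replicate 7 or 8, or ARG1+ male replicate 12 or 16. Other ER members, *Hspa13* (-0.12, SE 0.14), *Dnajc10* (0.02, SE 0.13), *Dnajc1* (0.38, SE 0.17) and *Dnajc25* (-0.41, SE 0.19), were not called.

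No HSP90 gene was called by edgeR, and 0 of the 3 passed with DESeq2. At an unadjusted p under 0.05 there was also none. *Hsp90ab1*, the constitutive cytosolic form, had a mean of 460 ± 73.8 CPM in ARG1- and 450 ± 65.3 CPM in ARG1+ microglia, a log2 fold change of -0.02 (SE 0.13) whose sign turned with the scaling (0.01 with RLE size factors). *Hsp90aa1*, the form that heat induces, had 61.9 ± 11.1 and 49.8 ± 7.26 CPM (-0.31, SE 0.14, adjusted p = 0.178), and 53.1% of its windows also occur in pseudogenes.

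Of the 40 J-domain genes tested, 1 was higher and 4 were lower, or 12.5% called against 15.9% of all genes. Their median log2 fold change was -0.08. *Dnajb14* (chr3:137867675-137916557), an ER membrane protein with its J domain in the cytosol, rose from 25.4 ± 5.83 to 41.2 ± 5.09 CPM (0.70, SE 0.17, adjusted p = 0.0143). ARG1- libraries ran from 19.7 over a median of 24.7 to 35.05 CPM and ARG1+ libraries from 34.9 over 39.9 to 47.7 CPM. The populations touched at a single pair of libraries, ARG1- male replicate 14 and ARG1+ male replicate 12. The call held in all 12 fits without 1 library, but not when the trend of each library on exon length and GC content was removed (0.40, adjusted p = 0.13), an alternative chosen after seeing the data. With 15741 bases of exon, *Dnajb14* is the longest member.

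*Dnajc15* (chr14:77820681-77875125), an inner membrane protein of the mitochondrial import motor, ran from 18.0 over a median of 20.1 to 22.0 CPM in ARG1- libraries, and from 5.93 over 9.74 to 14.3 CPM in ARG1+ libraries. Every ARG1+ library lay below every ARG1- library. *Dnajc15* fell from 20.2 ± 1.34 to 10.3 ± 3.26 CPM (-0.98, SE 0.22, adjusted p = 0.0101), and all 12 fits without 1 library called it.

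*Dnajc24* (chr2:105966709-106003549), which takes part in making diphthamide on elongation factor 2, had 13.3, 16.1 and 22.3 CPM as lowest, median and highest value in ARG1- libraries and 7.92, 10.5 and 13.1 CPM in ARG1+ libraries. The populations were separated by the narrow gap between ARG1- female replicate 1 and ARG1+ female replicate 15. It fell by 0.70 on the log2 scale (SE 0.19, adjusted p = 0.0272). The call was lost in 6 of 12 fits, without ARG1- female replicate 2, ARG1- male replicate 6, ARG1+ female replicate 7 or 8, or ARG1+ male replicate 12 or 16, with adjusted p up to 0.0880.

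*Dnajc8* (chr4:132535550-132553742), a nuclear protein found with the spliceosome, was the most abundant member that changed (131 in TPM form). It had 96.5, 131 and 154 CPM in ARG1- libraries and 84.8, 93.5 and 110 CPM in ARG1+ libraries, where only ARG1- female replicate 1 fell within the ARG1+ range. It fell from 130 ± 20.003 to 95.7 ± 10.6 CPM (-0.44, SE 0.12, adjusted p = 0.0318). The call held in 3 of 12 fits, those without ARG1- female replicate 1, ARG1- male replicate 14 or ARG1+ male replicate 11, and the other 9 gave adjusted p up to 0.0950.

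The members next to the limit on the far side, by adjusted p, were *Hspa1b*, *Dnajc30* (-0.49, SE 0.16, adjusted p = 0.0555), *Dnajc7* (0.49, SE 0.17, adjusted p = 0.0715), *Hspbp1* (-0.44, SE 0.16, adjusted p = 0.0781), *Hspa8* and *Dnajc5* (0.60, SE 0.23, adjusted p = 0.0994). *Dnajc7*, also called TPR2, links HSP70 to HSP90, and *Dnajc5* is the cysteine string protein of secretory vesicles. Of these genes, *Dnajc30*, *Dnajc7*, *Hspbp1* and *Dnajc5* lie outside the naming rule and were picked with their values in view. The 10 members that did not pass the filter were *Dnajb8*, *Dnajc5b*, *Dnajc5g*, *Dnajc6*, *Dnajc22*, *Hspa12b*, *Hspb2*, *Hspb7*, *Hspb8* and *Hspb9*. They had at most 96 counts in any library, and *Dnajc5b* had 0 in all 12, where a count of 0 allows up to 3 counts, or at most 0.102 CPM in any library.

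**Figure D3:**
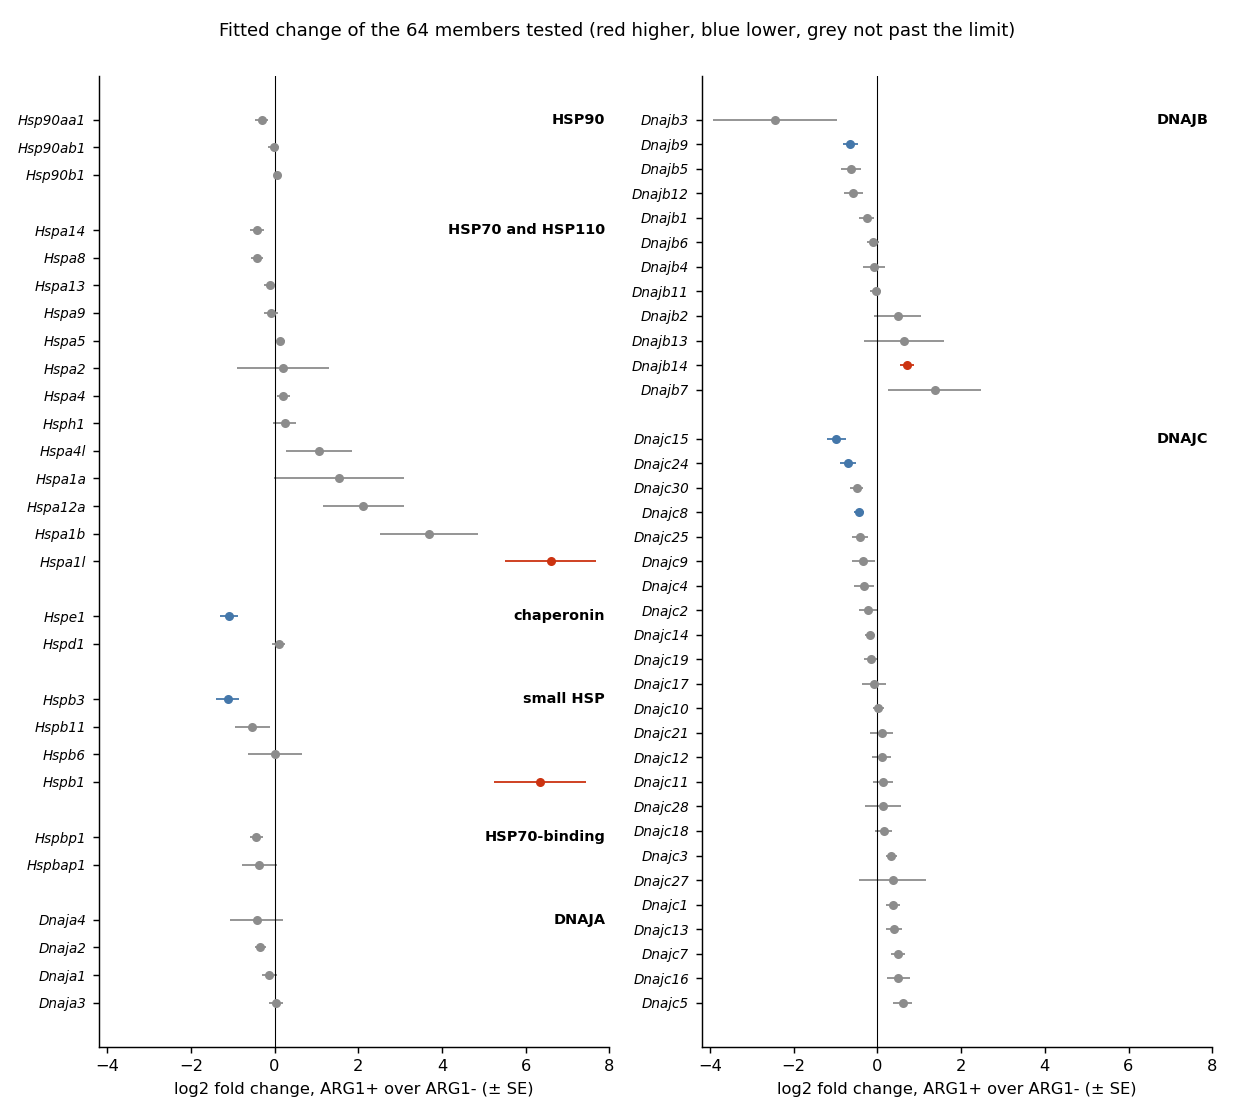
Log2 fold change of ARG1+ over ARG1- microglia, with its standard error as a bar, for the 64 members tested, grouped by family. Red marks the 3 members higher and blue the 6 lower at an adjusted p under 0.05, grey marks the others, and the wide bars belong to genes of low count such as *Hspa1a* and *Dnajb3*.

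The genes that work with the members were taken as lists. Beside each list's count stands the share over all genes tested, 15.9% called, with 6.44% higher and 9.42% lower. Of the 7 partner lists plotted, the one with the largest share called (66.7%) was that of the cytosolic chaperonin TRiC, which folds actin and tubulin, with the prefoldins that hand it its clients and the phosducin-like *Pdcl3*. Of 15 genes, 10 were lower and 0 higher by edgeR, all 15 had a fitted change below 0, and the list median was -0.63. The lower genes were *Cct3*, *Cct4*, *Cct5*, *Cct6a*, *Cct7*, *Tcp1*, *Pdcl3*, *Pfdn1*, *Pfdn4* and *Pfdn5*. *Cct4* fell from 202 ± 18.9 to 124 ± 14.8 CPM (-0.70, SE 0.10, adjusted p = 0.00106). *Pfdn5* fell from 61.3 ± 8.25 to 25.02 ± 5.93 CPM (-1.29, SE 0.17, adjusted p = 8.3e-04). *Cct2* (-0.18, SE 0.16) and *Cct8* (-0.28, SE 0.10) were not called. The list summed to 1750 to 2186 CPM in ARG1- libraries and 1292 to 1461 CPM in ARG1+ libraries, without overlap. With the length and GC trend removed the count was again 10 and the median -0.62, and in the fits that left out 1 library it ran from 6, without ARG1+ male replicate 16, to 11. It was 5 in females alone, with a list median of -0.547, and 0 in males alone, with a list median of -0.602, where only 1 gene of the whole table was called. At an unadjusted p under 0.05 the list held 0 higher genes, and DESeq2 also called 0 higher.

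Co-chaperones of HSP90 moved both ways, with 3 of 22 higher (*Fnip2*, *Ppid* and *Stub1*) and 3 lower (*Cdc37*, *Fkbp4* and *Sugt1*) and a median of 0.02. The share called was 27.3%, against 15.9% of all genes. *Cdc37*, which loads kinases onto HSP90, fell from 169 ± 12.7 to 119 ± 13.6 CPM (-0.51, SE 0.10, adjusted p = 0.00485). *Stub1*, the ubiquitin ligase CHIP that sends chaperone clients to degradation, rose from 152 ± 22.3 to 198 ± 26.9 CPM (0.39, SE 0.11, adjusted p = 0.0364). The 3 higher genes became 1 without ARG1- female replicate 2 or any 1 of the 3 ARG1+ female libraries, and 5 with RLE size factors, with DESeq2, with at least 10 counts in every library or with ARG1 status alone. *Stub1* kept its call in 3 of the 12 fits without 1 library, *Ppid* in 4, *Fkbp4* in 7, and *Cdc37*, *Sugt1* and *Fnip2* in 12.

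Among 16 exchange factors and other HSP70-binding proteins, 3 were lower (*Bag1*, *Grpel1* and *Ttc1*), or 18.8% called against 15.9% of all genes. *Grpel1*, the exchange factor of the mitochondrial HSP70, fell from 65.5 ± 11.7 to 36.3 ± 6.79 CPM (-0.85, SE 0.16, adjusted p = 0.00489), without overlap between the populations. *Bag1*, an exchange factor of the cytosolic HSP70, fell from 176 ± 15.5 to 114 ± 16.9 CPM (-0.63, SE 0.11, adjusted p = 0.00314). Other mitochondrial import and protease genes gave 1 lower of 10 (10% called), *Yme1l1* (77.8 to 48.3 CPM, adjusted p = 0.0297). It kept its call in 4 of the 12 fits without 1 library (adjusted p up to 0.0742). The lower mitochondrial genes named so far, *Hspe1*, *Dnajc15*, *Grpel1* and *Yme1l1*, come from 3 lists and were put side by side after their values were seen.

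Of the regulators of the response, *Hsf1*, the factor that drives heat shock genes, rose from 33.8 ± 9.96 to 62.4 ± 9.17 CPM (0.90, SE 0.18, adjusted p = 0.00592). *Hsbp1*, a small protein that binds HSF1 and restrains it, fell from 219 ± 21.7 to 115 ± 28.7 CPM (-0.92, SE 0.16, adjusted p = 0.00285), without overlap. *Hsf2* and *Hikeshi*, the other genes of this list that were tested, were not called. The list thus held only 4 tested genes, with 1 higher and 1 lower, or 50% called against 15.9% of all genes.

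Of the 21 ER folding and unfolded protein response genes tested besides the members, 1 was higher (*Sel1l*, of the degradation complex) and 4 were lower. The share called was 23.8%, against 15.9% of all genes. *Xbp1*, the factor that IRE1 activates, fell from 458 ± 57.6 to 302 ± 20.9 CPM (-0.60, SE 0.09, adjusted p = 0.00168), and *Herpud1*, of ER-associated degradation, fell from 238 ± 24.2 to 159 ± 13.3 CPM (-0.59, SE 0.09, adjusted p = 0.00169). *Manf*, a secreted protein that binds BiP, and *Sdf2l1*, which works with BiP and *Dnajb11*, were also lower. *Xbp1*, *Herpud1* and *Manf* kept their calls in all 12 fits without 1 library, *Sel1l* in 4 and *Sdf2l1* in 3, and both *Sel1l* and *Sdf2l1* lost them with the length and GC trend removed (adjusted p = 0.0908 and 0.132). The list median was -0.07. Other stress proteins, a list with *Cryab* and the metallothioneins, gave 1 higher of 7 tested (14.3% called). This was *Hmox1*, the heme-degrading enzyme (28.8 to 53.9 CPM, adjusted p = 0.00544). Of 21 immediate early genes, which sorting can induce, 2 were higher (*Atf3* and *Egr1*) and 1 was lower (*Nfkbia*), or 14.3% called. *Egr1* kept its call in all 12 fits without 1 library, *Atf3* and *Nfkbia* in 3 each, DESeq2 gave 5 higher, and their part in these results was not tested.

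**Figure D4:**
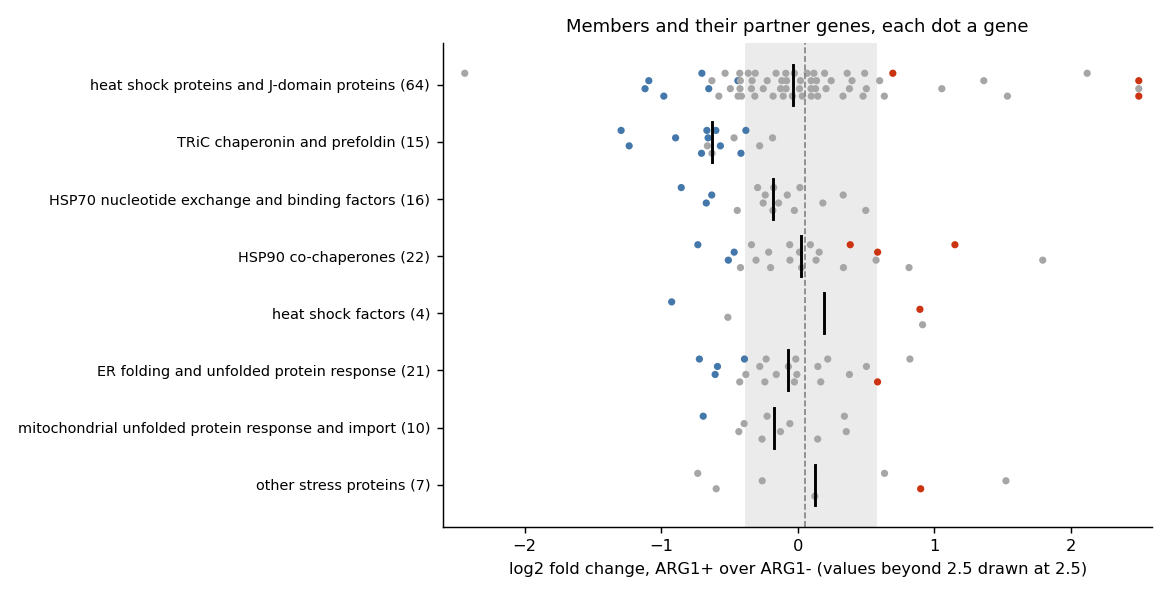
Log2 fold change of each tested gene of the family and of 7 partner lists, with a black bar at each list's median, red for higher and blue for lower genes at an adjusted p under 0.05, and grey for the rest. The band is the interquartile range of all 16908 genes and the dashed line their median of 0.06, and the TRiC and prefoldin genes all lie below 0.

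Gene length moved with the contrast over the whole table and is given here for the members. Over all genes tested, the median log2 fold change was -0.13 in the shortest of 4 equal classes of exon length, -0.10 in the next, 0.06 in the third and 0.29 in the longest. Members fell into these classes as 9, 17, 21 and 17 genes, with medians of -0.49, -0.04, 0.07 and 0.13. Lower members numbered 3 in the shortest class, 2 in the next and 1 (*Dnajc15*) in the longest, and their median exon length was 2011.5 bases, against 4249 for members not called and 3478 for all genes. Removal of each library's length and GC trend, chosen after seeing the data, left 5 lower members (*Dnajb9* at adjusted p = 0.0539 dropped out) and 3 higher. *Hspa1b* (3.77, adjusted p = 0.0426) took the place of *Dnajb14* beside *Hspa1l* and *Hspb1*. These 3 could each pass the filter only through the ARG1+ libraries, where they were high, so they do not support a count of higher members. A list of 15 genes was also taken, most of them known to keep introns in nuclear RNA, together with the non-coding nuclear RNAs *Neat1* and *Malat1*. Of these 15, 7 were higher (46.7%, against 6.44% of all genes), among them *Neat1* (2.58, SE 0.40, adjusted p = 0.00166) but not *Malat1*. All 15 had a fitted change above 0, with a list median of 0.69. With the length and GC trend removed, 6 were higher and the median was 0.539, and the median was 1.22 in females alone and 0.253 in males alone. Their part in the results on members was not tested.

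**Figure D5:**
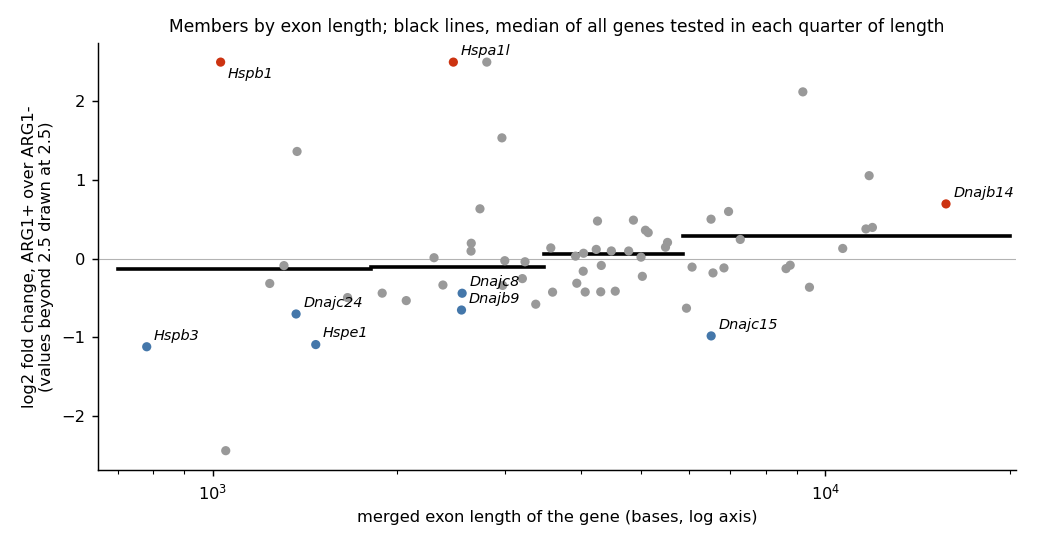
Log2 fold change of the 64 members tested against merged exon length on a log axis, red for higher, blue for lower and grey for members not called, with black lines at the median of all genes tested in each class of length. The lines climb from -0.13 to 0.29, and *Hspb3*, *Dnajc24* and *Hspe1* lie among the shortest members and *Dnajb14* is the longest.

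The sex of the animals made no detectable difference to any member. In edgeR's comparison of males with females, 0 of the 64 members were called in ARG1- microglia (0.0946% of all genes), 0 in ARG1+ microglia (0.0355%) and 0 in the interaction of sex and ARG1 status (0%), and DESeq2 gave 0 in each as well. At an unadjusted p under 0.05 there were 8, 1 and 8 members, against 10%, 3.12% and 9.32% of all genes. The smallest adjusted p was 0.387 for *Hspa1b* in ARG1- microglia (0.271 ± 0.270 CPM in females and 0 in males). *Dnajb11* gave the smallest p of the interaction. Its CPM in ARG1- females was 171, 160 and 202 and in ARG1+ females 124, 135 and 156, and in ARG1- males 127, 137 and 135 and in ARG1+ males 172, 157 and 158. Every ARG1+ library was lower in females and higher in males, but the interaction of 0.65 (SE 0.18, unadjusted p = 0.00387) had an adjusted p of 0.433. *Dnajc11*, of the mitochondrial inner membrane organizing system, had an interaction of 1.12 (SE 0.36) and *Hspd1* of 0.65 (SE 0.24), both with adjusted p above 0.4. In ARG1+ microglia the smallest p values belonged to *Hspb3* (13.3 ± 4.62 CPM in females and 7.63 ± 1.67 in males), *Dnajb5* and *Dnaja1*, each with an adjusted p of 1. Within females alone 2 of the 9 members were called (*Hspa1l* and *Dnajb14*, with 986 genes of all called), and within males alone 0, with 1 gene of all called. Of the 9 members, the 7 tested in each sex alone (all but *Hspa1l* and *Hspb1*) had the same direction in each sex as in the whole, with *Hspe1* at -0.935 in females and -1.23 in males.

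Libraries of ARG1- microglia varied more among themselves than those of ARG1+ microglia, for the members as for genes in general. After the mean of each sex was taken out, the spread of log2 CPM was wider in ARG1- microglia for 42 of the 64 members (65.6%) and for 70.4% of all genes. *Hspa4*, an HSP110 exchange factor, had 149, 163, 91.3, 116, 71.1 and 102 CPM in the ARG1- libraries and 137, 137, 127, 127, 128 and 133 CPM in the ARG1+ libraries. The ARG1+ values thus lay within a band that the ARG1- values overran on both sides. *Dnajb2*, a J-domain protein of neurons and muscle, ran from 0.477 to 16.7 CPM in ARG1- and from 10.2 to 14.2 CPM in ARG1+ libraries. *Hspa4* and *Dnajb2* were picked here for the size of this difference.

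The cells had the markers of microglia in every library. The 11 microglial markers summed to between 40344 and 51138 CPM in ARG1+ and between 50865 and 68058 CPM in ARG1- libraries, with 8 of 11 lower and 1 higher in ARG1+ microglia. Border macrophage markers summed to 110 to 145 CPM in ARG1- and 117 to 244 CPM in ARG1+ libraries, and oligodendrocyte markers to 264 to 385 CPM and 171 to 262 CPM. Most of the border macrophage sum was *Mrc1* (121 ± 16.1 and 147 ± 46.4 CPM, not called). Of the 6 of these markers tested, 1 was higher, *Folr2* (2.84 ± 1.10 and 8.41 ± 3.97 CPM, adjusted p = 0.00555), and 0 lower. The fitted change was above 0 for 4 and below 0 for 2. Neuron markers summed to 6.95 to 13.2 CPM in ARG1- and 2.61 to 8.32 CPM in ARG1+ libraries, and neutrophil markers to 3.75 to 6.97 and 5.84 to 11.5 CPM. Monocyte markers summed to 7.47 to 14.1 and 2.29 to 7.20 CPM, with 1 of 4 tested lower (*Plac8*). Erythroid markers summed to 3.69 to 17.8 and 0 to 3.39 CPM, with 1 of 5 tested lower (*Hbb-bt*). T cell markers reached at most 2.65 CPM in any library. Astrocyte markers summed to 178 to 223 CPM in ARG1- and 129 to 151 CPM in ARG1+ libraries. The part of these cells in the members' values was not tested.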

How the data were processed

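RNA of 12 microglial samples was amplified with SMART-Seq v4, made into Nextera XT libraries and sequenced as 75-base single-end reads. Per the study's methods and processing notes, the authors used bcl2fastq 2.20.0, STAR 2.6.1d on Ensembl GRCm38, featureCounts 1.5.1 and DESeq2 1.28.1. The values the authors deposited are raw counts per gene, not normalized, for 55487 Ensembl identifiers. The annotation release and the settings for strand and multimapped reads are not given in the sources used here. Reads carry no molecular identifiers, so intervals cover counting error only.

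Symbols and positions come from GENCODE M21 (55227 identifiers matched). The tests were run with edgeR 4.0.16 under R 4.3.3. After filterByExpr over the 4 groups, 16908 genes remained, which were scaled by TMM. The counts were fitted on ARG1 status and sex (quasi-likelihood F test), p-values were adjusted by Benjamini–Hochberg across these genes, and 0.05 was the limit. Sex contrasts used the 4 group means. A standard error is the log2 fold change over the square root of F. DESeq2 1.42.0 was an alternative, and length and GC trends were fitted with mgcv 1.9.3. All 12 replicate pairs differed by 40.7 to 125 times their degrees of freedom in a chi-square of counts, so each library was 1 replicate. The scripts were checked on simulated data.

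The members, families and lists were chosen with earlier results of these data known. Named members are those called, the stress-induced, ER and mitochondrial members, the 5 of highest level per length and 3 by smallest p for either sex contrast or the interaction. Others were chosen after their values were seen. Alternatives were RLE and upper-quartile factors, no filter, at least 10 counts in every library, DESeq2, ARG1 status alone, a term for libraries numbered 13 to 16, counts thinned to the smallest total, each sex alone and each library left out, with removal of the length and GC trend added after seeing the data.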

Additional observations from a re-analysis of the deposited data

Results flagged for a closer look

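In each population the named members were searched for a single library far from the other 5. Of 62 groups searched, 8 had such a library, where 1 in 20, or 3.1, is the rate for independent, normally distributed values. The CPM searched include genes near 0 counts and genes that share windows, so 8 beside 3.1 is no test against chance. Of these 8, 3 were the same library, ARG1+ female replicate 8, which had the highest CPM of *Hspa1a* (3.23, next 0.840), *Hspa1b* (2.35, next 0.951) and *Hspb1* (1.6, next 0.609), at 95, 69 and 47 counts. *Hspa1a* and *Hspa1b* share most of their sequence windows. The same library was lowest of the 6 ARG1+ libraries for *Hsph1* (17.2 CPM), *Dnajb1* (38.7 CPM) and *Hsp90aa1* (39.6 CPM). In ARG1- microglia, *Hspa1a* stood at 1.40 CPM in female replicate 2 (56 counts, next 0.510). *Hspb1* had its single count, 0.03 CPM, in ARG1- female replicate 1. ARG1- male replicate 14 was far above the others for *Dnaja1* (101 CPM, next 69.7) and *Hspa13* (78.7 CPM, next 64.4), and ARG1+ male replicate 11 was far below for *Hspa13* (39.4 CPM, next 57.6). *Dnajb11* moved in opposite directions in the sexes, with every ARG1+ library below every ARG1- library in females and above in males, a difference of 0.652 in log2 fold change, males minus females. The interaction test gave an adjusted p of 0.433.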

How the results depend on the processing

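No paired analysis was possible because the labels give the groups no shared replicate numbers and tie no library to its litter. The 9 calls came back unchanged under upper-quartile factors, RLE factors, DESeq2, ARG1 status alone, the term for libraries 13 to 16 and thinned counts, with up to 5 members added. Without a filter 3 of 73 members were lower, beside 1099 of 29671 genes, and the median over members was 0.043. DESeq2 called 7 of 64 members higher, beside 1896 of 16602 genes, and *Hspa1l*, *Hspb1* and *Hspa1b* among the 7 carry the limit of the filter. Over all genes, 986 were called in females alone, 1 in males alone and 1753 without ARG1+ male replicate 12, against 2682. The females alone gave 0 lower members and a median of -0.177, and the males alone 0 higher, 0 lower and a median of 0.0741. Leaving out each library gave 2 to 8 lower and 3 to 4 higher members and a median from -0.0426 to 0.0278.

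Directions turned only for members that were not called. *Hsp90ab1* became 0.0123 with RLE factors, 0.00604 without a filter, 0.0117 with at least 10 counts, 0.0123 with DESeq2, 0.251 in males and 0.0255 without the length trend. In females *Dnaja1* was 0.274, *Dnaja3* -0.158, *Dnajc10* -0.0435, *Dnajc11* -0.414, *Hspa13* 0.134, *Hspa5* -0.0579 and *Hspd1* -0.214. In males *Dnajb1* was 0.105, *Dnajb11* 0.285 and *Hspa9* 0.0741. Without the length trend *Dnajc10* was -0.058 and *Dnajc11* -0.105. Over the fits without 1 library, *Dnaja1* ran from -0.238 to 0.0379, *Dnaja3* from -0.0634 to 0.127, *Dnajb11* from -0.0927 to 0.0557, *Dnajc10* from -0.0346 to 0.101, *Dnajc11* from -0.019 to 0.29, *Hsp90ab1* from -0.091 to 0.0592, *Hspa13* from -0.15 to 0.00585 and *Hspa9* from -0.172 to 0.0373. The cause of these shifts was not tested. Depth limits *Hspa1a*, *Hspa1b*, *Hspa1l* and *Hspb1*, where 3 counts equal 0.0511 to 0.102 CPM.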
